A study of Mus musculus with 8 samples.

Results

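The Polycomb group and deubiquitinase genes are 34 genes. They encode subunits of the Polycomb repressive complexes and of the deubiquitinase that opposes them, or relatives of such subunits. They were taken by gene symbol from the 31723 genes of the deposited table, by a list of names, and all 34 were found and had enough reads to be tested. The RNA-seq libraries came from hindlimb muscle stem cells, which express Pax7 and lie beside the fibres of skeletal muscle, isolated by fluorescence-activated sorting from C57BL/6 wild-type mice. There were 4 libraries from young mice aged 3 months and 4 from old mice aged 20 months, each from 200000 freshly isolated cells. Both ages shared strain, genotype and handling, and the labels do not say whether a library came from 1 mouse or from pooled mice, so that p-values measure the spread between these libraries.

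Polycomb repressive complex 2 (PRC2) methylates histone H3 at lysine 27 (H3K27), and Polycomb repressive complex 1 (PRC1) attaches ubiquitin to histone H2A at lysine 119. Canonical PRC1 carries CBX proteins that read the H3K27 mark, and variant PRC1 carries RYBP or YAF2 in their place. The Polycomb repressive deubiquitinase (PR-DUB), made of BAP1 and an ASXL protein, removes ubiquitin from H2A. In mouse muscle stem cells Ezh2, a PRC2 methyltransferase, is needed to maintain the stem cell pool, and Polycomb marks cover genes of other lineages.

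Between 19.0 and 34.7 M reads per library were recovered from the normalized counts. The stem cell marker Pax7 was present in all libraries, between 1868 and 3485 normalized counts, while 3 of 9 stem cell markers (Itga7, Calcr and Chrdl2) fell. Of 13 fibroblast and tendon cell markers 4 rose (Dcn, Lum, Tnmd and Fmod), while Col3a1 (-0.59) and Dpt (-0.23) were below 0 without passing. The summed level of the 13 was 49332 to 85925 in young and 59412 to 201107 in old. No macrophage, smooth muscle and pericyte, Schwann, muscle fibre or erythroid marker passed. Macrophage markers summed to 953 to 2400 in young and 1332 to 4831 in old. The muscle fibre sum was 22950 in old library 4, against 5888 to 10334 in the other libraries. Library 3 of each age stood apart by 8 endothelial markers, whose sum was 52186 in young library 3 and 42728 in old library 3, against 15616 to 28377 in the other 6 libraries. The part of these other cells in the results was not tested beyond the values without both libraries 3 and with a marker covariate given beside each called gene. Of 9 T and B cell markers, Cd3e, Cd3d, Cd3g, Cd4 and Cd8a were at 0 in at least 1 library, and the sum of all 9 was 45.0 to 451 in young and 159 to 472 in old. In such bulk samples fewer cells of a type and less RNA per cell cannot be told apart.

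Of the 34 genes, Cbx7 rose and Scml4 and Asxl1 fell in old cells, and the other 31 did not pass the test (limma on log2 of the normalized count plus 1, Benjamini-Hochberg adjusted p under 0.05 over 14822 tested genes). The 3 called genes were 8.82% of the members, against 5.22% of all tested genes, of which 3.34% were higher and 1.88% lower. The same 3 were the members whose young and old libraries did not overlap, 1 higher and 2 lower, where 7.99% and 5.46% of all tested genes did so. With 3 genes, a share of this size is near the background. The median log2 fold change was -0.038 over the members and 0.045 over all tested genes, and 29 of the 34 lay within 0.25 of 0, as did 57.1% of all tested genes. On the recovered reads edgeR and DESeq2 called the same 3 members, where they called 4.77% and 9.24% of all tested genes. In what follows a change is a log2 fold change of old against young, with its SE, and a level is a normalized count.

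**Figure D1:**
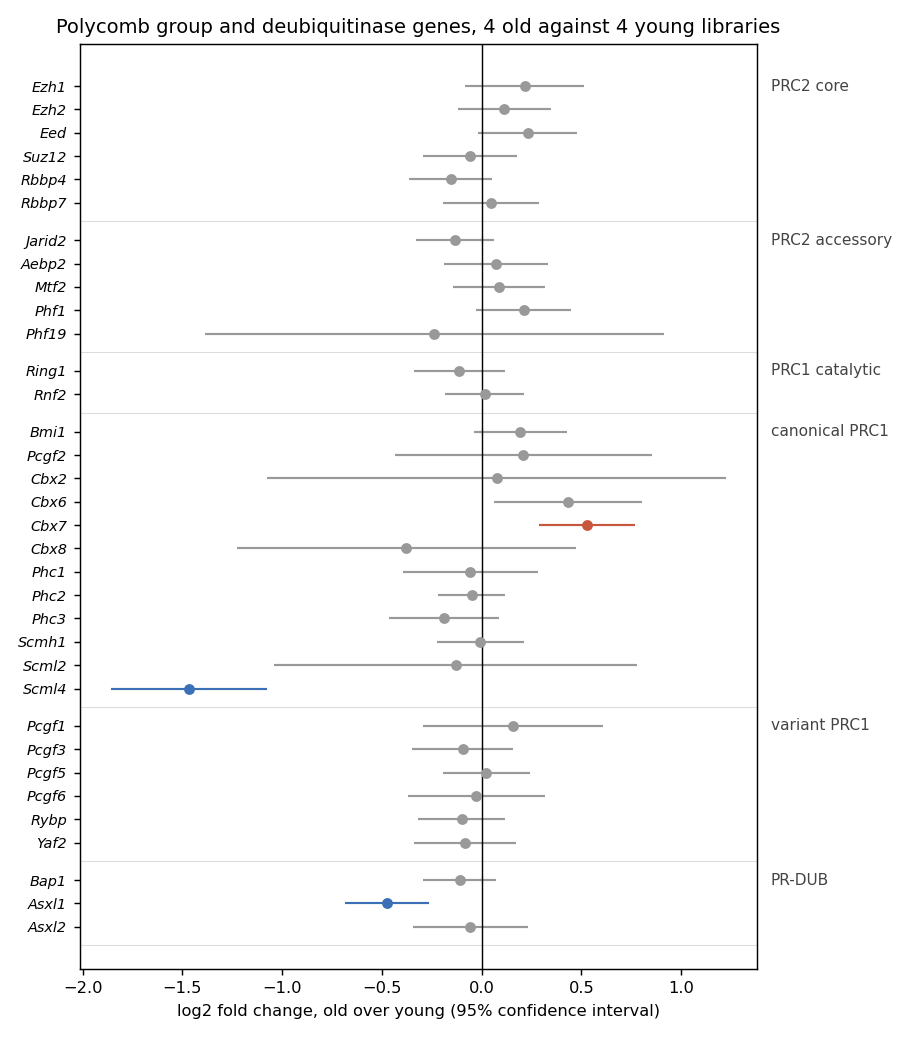
Log2 fold change (old over young, x axis) of the 34 genes, grouped by complex, with 95% confidence intervals from limma over 4 young and 4 old libraries. Cbx7 (0.53) is higher, Scml4 (-1.47) and Asxl1 (-0.47) are lower, and the grey genes did not pass the test.

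Promoter sequence is shown for Cbx7 and Asxl1, which changed, and for Cbx6, the neighbour of Cbx7 with a start 98.3 kb away on the same strand. Some variant PRC1 complexes and the PRC2 accessory proteins MTF2, PHF1 and PHF19 bind unmethylated CG-rich DNA. Each CG dinucleotide is therefore in capitals in the 250 bases before a RefSeq start of each gene, given 5′ to 3′ (GRCm38.p6). They lie at chr15:79932647-79932896 (minus strand, Cbx7), chr15:79834334-79834583 (minus strand, Cbx6) and chr2:153345580-153345829 (plus strand, Asxl1). GENCODE, used for exon lengths, also annotates Cbx7 transcripts that start farther upstream, at up to position 79971119, so that the Cbx7 sequence shown lies inside the gene's outermost bounds there.
Cbx7: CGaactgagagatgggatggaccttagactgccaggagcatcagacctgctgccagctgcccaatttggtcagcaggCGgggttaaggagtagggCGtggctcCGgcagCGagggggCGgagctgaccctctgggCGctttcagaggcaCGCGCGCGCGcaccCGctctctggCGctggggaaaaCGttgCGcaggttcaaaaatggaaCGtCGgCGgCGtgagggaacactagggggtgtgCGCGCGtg
Cbx6: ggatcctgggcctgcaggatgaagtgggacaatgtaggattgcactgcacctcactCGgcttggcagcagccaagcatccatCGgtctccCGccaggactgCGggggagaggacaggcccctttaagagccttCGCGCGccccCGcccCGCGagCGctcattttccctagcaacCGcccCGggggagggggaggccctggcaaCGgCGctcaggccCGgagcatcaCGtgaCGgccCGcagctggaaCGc
Asxl1: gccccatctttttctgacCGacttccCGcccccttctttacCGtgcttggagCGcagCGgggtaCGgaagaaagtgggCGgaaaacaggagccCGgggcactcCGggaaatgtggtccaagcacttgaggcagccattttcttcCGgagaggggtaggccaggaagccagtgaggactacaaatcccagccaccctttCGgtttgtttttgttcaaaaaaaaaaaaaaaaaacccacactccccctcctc
The Cbx7 sequence holds 23 CG dinucleotides, that of Cbx6 20 and that of Asxl1 11, which puts Asxl1 just under the mark for CG density (observed over expected 0.598). The promoter table covered 29 of the 34 genes with 38 promoters, and Cbx2, Pcgf1, Rybp, Scml4 and Yaf2 have no entry. At a GC content of at least 50% and an observed over expected CG ratio of at least 0.6, 26 of the 38 (68.4%) were CG-dense, against 57.4% of the promoters of tested genes and 31.0% of all in the table. The motif CACGTG, which reads the same on both strands and is bound by MAX among others, was in 8 of the 38 (21.1%), those of Bap1, Bmi1, Cbx6, Cbx8, Pcgf2, Phc2, Phc3 and Rbbp4. It was in 8.03% of the promoters of tested genes and in 6.02% of all. Cbx7 and Asxl1 are not among these 8. A match is a run of letters and not a measured binding site.

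PRC2 core genes were present at both ages and none of the 6 passed the test. Ezh1 and Ezh2 encode the alternative H3K27 methyltransferases. Ezh2 had 774, 892, 849.9 and 744 normalized counts in young libraries 1 to 4 and 955, 777, 908 and 887 in old (0.11 ± 0.10, adjusted p = 0.587). Ezh1 had 1489, 1706, 1851 and 1392 in young and 1491, 1804, 2079 and 2129.5 in old (0.22 ± 0.13, adjusted p = 0.406). The ages overlapped for both, and the 95% confidence interval of the log2 fold change ran from -0.12 to 0.34 for Ezh2 and from -0.083 to 0.51 for Ezh1. Per kb of exon, Ezh1 was the more abundant of the pair, 216 ± 27.9 against 122 ± 10.2 in young and 252 ± 39.5 against 132 ± 11.3 in old (SD, n = 4). Ezh1 thus made up 63.8% ± 1.57 of the pair in young and 65.4% ± 4.70 in old, and the lowest share, 58.4%, was in old library 1.

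Eed encodes the subunit that reads H3K27 methylation, and Suz12 the scaffold. Eed had the largest difference of the core, 703, 706, 861 and 730.5 in young and 855, 820.4, 1017 and 829 in old (0.23 ± 0.11, adjusted p = 0.275). In both ages its highest value was in library 3, the library with the highest endothelial marker sum; the part of those cells was not tested. Without both libraries 3 Eed was at 0.23 (adjusted p = 0.265). Suz12 was at -0.059 ± 0.11, from 1051 ± 84.9 to 1012 ± 112. The histone chaperones Rbbp7 and Rbbp4, which serve other chromatin complexes as well, were the most abundant members per kb in young, with 2636 ± 228 and 619 ± 39.1 normalized counts per kb. In old Rbbp7 was again the highest with 2729 ± 356, while Rbbp4 (557 ± 56.3) lay beside Rnf2 (585 ± 45.1). Rbbp4 was at -0.16 ± 0.094 (adjusted p = 0.390) and Rbbp7 at 0.045 ± 0.11 (adjusted p = 0.868), and the ages overlapped for both.

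The PRC2 accessory genes did not pass the test either, 0 of 5, where 5.22% of all tested genes did. JARID2 and AEBP2 form one type of PRC2, and the Polycomb-like proteins MTF2, PHF1 and PHF19 the other. Phf1 had 716, 787, 623 and 687 in young and 831, 898, 763 and 761 in old (0.21 ± 0.11, adjusted p = 0.300), with young library 2 inside the range of the old. Jarid2 was at -0.13 ± 0.088, and its old libraries were the tightest of any member, between 1409.6 and 1463. Aebp2 (0.071 ± 0.12) and Mtf2 (0.088 ± 0.10) overlapped between the ages. Per kb, Aebp2, Phf1, Jarid2 and Mtf2 were within a narrow range in young, from 126 ± 8.97 for Mtf2 to 221 ± 15.4 for Aebp2, and Phf19 was far below them at 5.28 ± 0.544. Phf19 had between 9 and 52 recovered reads per library, and its 95% interval ran from -1.39 to 0.91, with old libraries at 48.8, 33.5, 20.4 and 7.04 normalized counts and young ones between 22.8 and 28.9. The Jarid2 share of the accessory genes per kb was 22.8% ± 1.96 in young and 19.8% ± 1.43 in old, with overlapping libraries.

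**Figure D2:**
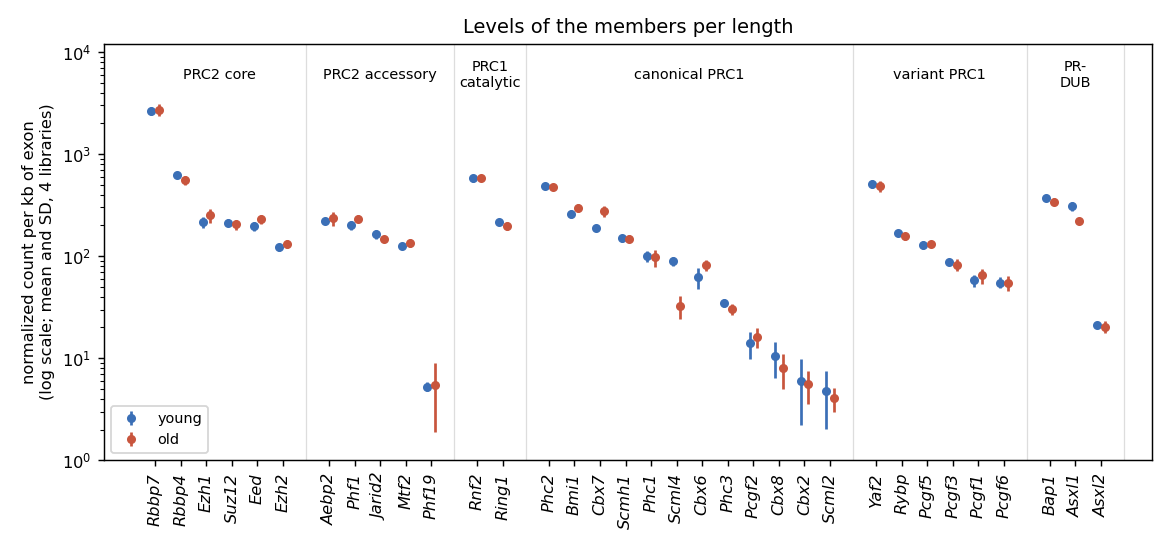
Levels of the 34 genes as normalized counts per kb of exon (y axis, log scale), young in blue and old in red, as mean and SD over 4 libraries, ordered within each complex by the young mean. Rbbp7 (2636 in young) is the highest and Scml2 (4.78 in young) the lowest, and Scml4 stands out as the member whose old and young points are farthest apart.

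The ubiquitin ligases of PRC1, Ring1 and Rnf2 (RING1B), did not pass the test. Rnf2 had 2661, 2262, 2366 and 2276 normalized counts in young and 2386, 2652, 2426 and 2199 in old (0.015 ± 0.090, adjusted p = 0.951), with a 95% interval of -0.19 to 0.21. Ring1 was at -0.11 ± 0.10 (696 ± 33.2 in young, 646 ± 60.2 in old, adjusted p = 0.585). Rnf2 made up 72.9% ± 1.85 of the pair per kb in young and 74.6% ± 3.09 in old. The libraries of the ages overlapped for both genes and for their ratio.

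Of the 12 genes listed here under canonical PRC1, 1 rose and 1 fell, where 3.34% and 1.88% of all tested genes did. The gene that fell, Scml4, was placed in this group by the list, and its part in the complex was not tested. Cbx7, a chromodomain protein that reads H3K27 methylation, had 1300.2, 1219.5, 1291 and 1141 normalized counts in young libraries 1 to 4 and 1512, 2091, 1758 and 1820.0 in old. Every old library was above every young one, with old library 2 the highest and old library 1 the lowest of the old. The log2 fold change was 0.53 ± 0.11 (limma adjusted p = 0.0227), a level 44.2% higher, with a 95% interval of 0.29 to 0.77. The adjusted p lay above the threshold without young library 1 (0.55, adjusted p = 0.0510), young library 4 (0.49, 0.0673), old library 2 (0.45, 0.0572) and old library 4 (0.52, 0.0646), and in the fit with no variance trend (0.0605). Without both libraries 3 it was 0.56 (adjusted p = 0.0449). With the mean level of the fibroblast and tendon cell markers as a covariate it was 0.42 ± 0.17 (adjusted p = 0.443), a fit in which 14 of all tested genes were called, 9 higher and 5 lower. The median log2 fold change of these markers was 1.61, so this covariate moves with age. A call lost in that fit therefore cannot tell the part of these cells from that of age. Cbx7 shares 100 exon bases (1.54% of its exon length) with Apobec3 on the opposite strand, and Apobec3 was at 0.16 ± 0.16 (adjusted p = 0.613).

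The other chromodomain genes among the members did not pass. Cbx6 had 584, 847, 705 and 488 in young and 794, 798, 876 and 1019 in old (0.43 ± 0.17, adjusted p = 0.172), with young library 2 inside the old range, and the 95% interval ran from 0.060 to 0.81. With the marker covariate Cbx6 was at 0.23 ± 0.26 (adjusted p = 0.790). Cbx2 and Cbx8 were near the lower limit of detection, with 13 to 56 and 21 to 60 recovered reads per library, and were at 0.075 ± 0.52 and -0.38 ± 0.38. Per kb of exon, Cbx7 was above Cbx6 at both ages, 191 ± 11.4 against 61.8 ± 14.7 in young and 277 ± 36.7 against 82.2 ± 9.94 in old. Cbx8 and Cbx2 were far below both, at 10.4 ± 3.97 and 6.00 ± 3.79 in young.

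Scml4, a relative of the Drosophila Polycomb gene Sex comb on midleg, fell most of the 34 genes. It had 691, 581, 718 and 752 normalized counts in young libraries 1 to 4 and 215, 339.9, 257 and 195 in old. The lowest young library was well above the highest old library, old library 2. The log2 fold change was -1.47 ± 0.18 (limma adjusted p = 0.00235), a level 63.9% lower, with a 95% interval of -1.86 to -1.08. Scml4 kept its call without each of the 8 libraries in turn, between -1.62 and -1.36 (adjusted p between 0.00293 and 0.0118), and without both libraries 3 (-1.46, adjusted p = 0.00738). With the fibroblast and tendon marker covariate, which moves with age, it was at -1.40 ± 0.28 (adjusted p = 0.113), with a larger SE than in the main fit. Its level per kb went from 88.8 ± 9.56 to 32.6 ± 8.30. Its relatives Scmh1 (-0.0081 ± 0.098, 1154 ± 91.2 in young) and Scml2 (-0.13 ± 0.41, 29.1 ± 16.9 in young) did not pass the test. No other annotated gene overlaps an exon of Scml4.

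**Figure D3:**
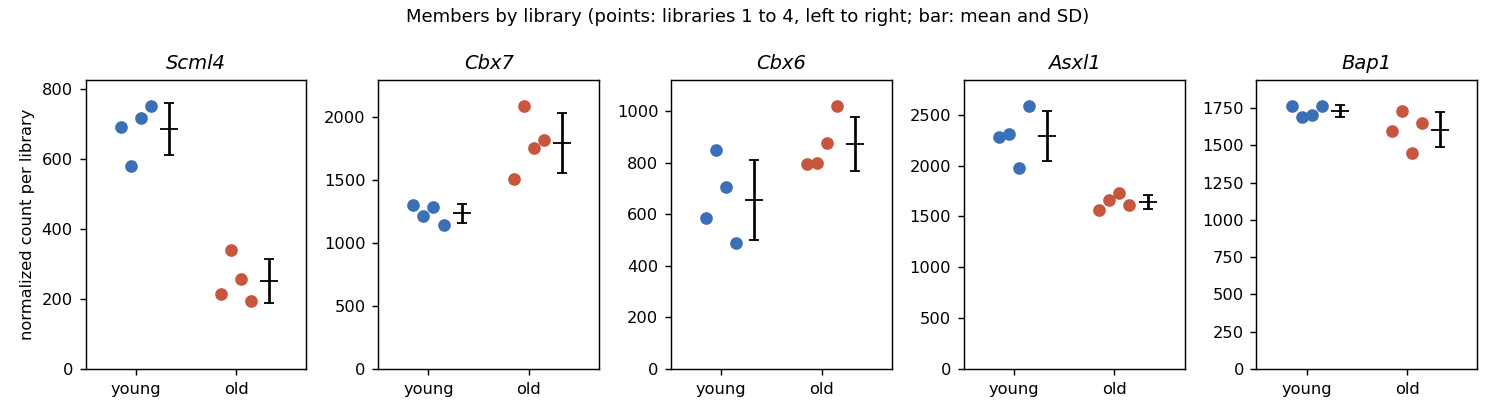
Normalized counts (y axis, from 0) of Scml4, Cbx7, Cbx6, Asxl1 and Bap1 in young and old libraries 1 to 4, with mean and SD beside them. Young and old do not overlap for Scml4, Cbx7 and Asxl1, while they overlap for Cbx6 and Bap1.

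The remaining canonical genes are RING partners and polymerizing subunits. Bmi1 (PCGF4), which keeps Cdkn2a repressed in many stem cells, had 993, 920.3, 1145 and 1079 in young and 1126, 1349.9, 1152 and 1106 in old (0.19 ± 0.10, adjusted p = 0.332), the ages overlapping through young library 3. Its paralog Pcgf2 had 50 to 72 recovered reads per library and was at 0.21 ± 0.29. Phc2, the most abundant of the 3 polyhomeotic genes, made up 78.3% ± 2.46 of their summed level per kb in young and 78.8% ± 2.65 in old, and was at -0.050 ± 0.075, the smallest SE of the members. Phc1 (-0.058 ± 0.15) and Phc3 (-0.19 ± 0.12) did not pass. Young and old libraries overlapped for each of these 5 genes.

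None of the 6 variant PRC1 genes passed the test, where 5.22% of all tested genes did, and their log2 fold changes lay between -0.10 and 0.16. The PCGF subunits set which variant complex forms. Pcgf5 had 1651, 1666, 1422 and 1802 in young and 1549, 1630.1, 1837 and 1619.8 in old (0.023 ± 0.098, 95% interval -0.19 to 0.24). Pcgf3, which forms a complex like that of Pcgf5, was at -0.096 ± 0.11, Pcgf1 at 0.16 ± 0.20 and Pcgf6 at -0.027 ± 0.16. Within the 6 PCGF genes Bmi1 held the largest share per kb, 43.0% ± 2.86 in young and 46.0% ± 3.15 in old, and Pcgf5 the next, 21.4% ± 2.08 and 20.3% ± 1.52. By normalized counts alone Pcgf5 was above Bmi1, 1635 ± 158 against 1034 ± 98.1 in young and 1659 ± 124 against 1183 ± 112 in old. Their order per kb thus rests on the exon lengths, 12629 bases for Pcgf5 and 3974 for Bmi1, which take in all annotated transcripts. Rybp and Yaf2, alternative subunits that bind RING1B in place of a CBX protein, were at -0.10 ± 0.098 and -0.085 ± 0.12. Yaf2 was the more abundant per kb (512 ± 51.3 against 167 ± 9.80 in young), and the log2 ratio of their counts was the same at both ages within its spread (-0.27 ± 0.22 in young and -0.29 ± 0.22 in old).

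In PR-DUB, Asxl1 fell while Bap1 and Asxl2 did not pass. Asxl1 encodes the cofactor that activates BAP1, and had 2280.3, 2315, 1977 and 2586 normalized counts in young libraries 1 to 4 and 1566, 1666, 1728 and 1609.7 in old. Every old library was below every young one, and the old libraries lay close together. The log2 fold change was -0.47 ± 0.095 (limma adjusted p = 0.0212), a level 28.0% lower, with a 95% interval of -0.68 to -0.26. The adjusted p lay above the threshold without young library 1 (-0.47, adjusted p = 0.0602), young library 4 (-0.41, 0.0589), old library 1 (-0.45, 0.0621), old library 2 (-0.48, 0.0549) and old library 4 (-0.46, 0.0600), and in the fit with no variance trend (0.0600). With the fibroblast and tendon marker covariate it was -0.47 ± 0.15 (adjusted p = 0.343), and without both libraries 3 -0.57 (adjusted p = 0.0148). Asxl1 shares 197 exon bases (2.65% of its exon length) with the gene 2500004C02Rik on the opposite strand, which had 36.6 ± 7.94 counts in young and 38.2 ± 5.41 in old.

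Bap1, the catalytic subunit, had 1763, 1692, 1703 and 1765 in young and 1594, 1732, 1451 and 1649 in old (-0.11 ± 0.083, adjusted p = 0.501, 95% interval -0.29 to 0.073). Its young libraries were among the tightest of the members, and old library 2 lay inside their range. Asxl2 was at -0.057 ± 0.13, from 337 ± 19.9 to 325 ± 41.1. The log2 ratio of Asxl1 over Asxl2 was 2.84, 2.79, 2.44 and 2.97 in young and 2.48, 2.13, 2.44 and 2.33 in old, with young library 3 inside the old range. Asxl1 remained the main ASXL gene, with 93.3% ± 1.12 of the family per kb in young and 91.4% ± 0.785 in old.

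**Figure D4:**
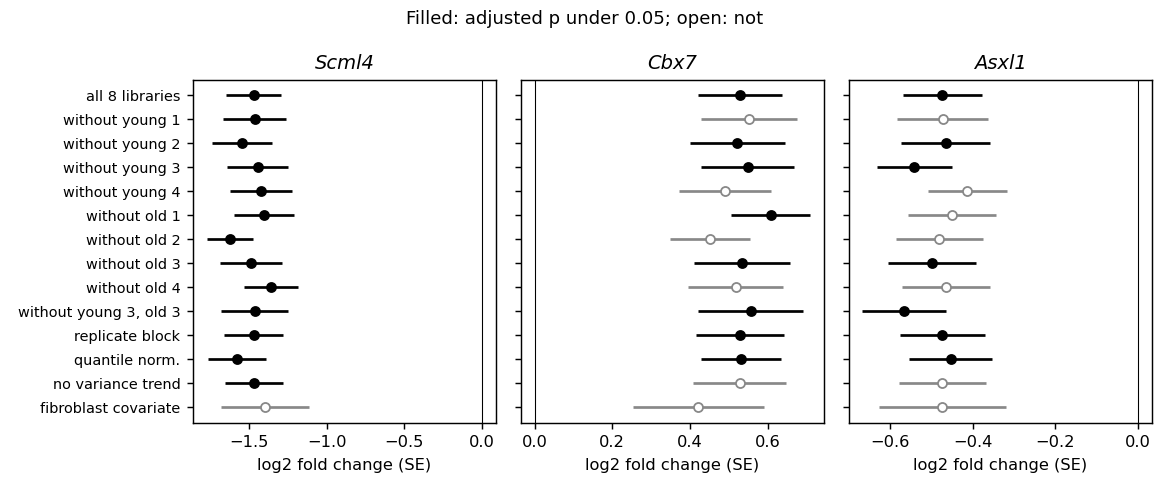
Log2 fold change with SE (x axis) of Scml4, Cbx7 and Asxl1 under other choices of libraries or fit (y axis). Filled points have an adjusted p under 0.05 and open points do not; Scml4 is open with the fibroblast covariate alone among those drawn, and the 3 genes keep their sign throughout.

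Genes that work with these complexes were followed in a list of 42, of which 41 were tested, 3 fell and 0 rose by limma, where 1.88% of all tested genes fell and 3.34% rose. At an unadjusted p under 0.05, 8 were lower and 1 was higher, where 8.06% and 12.7% of all tested genes were, and 20.8% in either direction. Asxl3 did not reach the minimum level. Max, a DNA-binding partner in the Pcgf6 complex and also of Myc, had 989, 729, 1024 and 1096 in young and 732, 523, 406 and 532 in old (-0.82 ± 0.19, adjusted p = 0.0327), with young library 2 and old library 1 meeting. Auts2, an activating subunit of the Pcgf3 and Pcgf5 complexes, had 2674, 3037, 2576 and 3169 in young and 2169, 1912, 2282 and 2176 in old (-0.42 ± 0.096, adjusted p = 0.0338), without overlap. Ogt, the sugar transferase that binds PR-DUB through HCFC1 and acts on many other proteins, had 5245, 4219.9, 4511 and 5027 in young and 3652, 3746, 3642 and 3665 in old (-0.36 ± 0.086, adjusted p = 0.0373), also without overlap. Of 18 variant PRC1 partners 2 fell and 16 did not pass, against the same 1.88% of all tested genes lower. Of the 41 tested partners, 4 were lower and 0 higher without overlap between the ages, Auts2 and Ogt among them. Of all tested genes 5.46% were lower and 7.99% higher without overlap.

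The calls of all 3 (Max, Auts2 and Ogt) lay near the threshold, and each was lost when any 1 of several libraries was left out. Over the 8 fits without 1 library the change ran from -0.97 to -0.69 for Max. It ran from -0.47 to -0.37 for Auts2 and from -0.42 to -0.32 for Ogt. The adjusted p of Max lay above the threshold without young library 1 (0.0854), 3 (0.0543) or 4 (0.0931) and without old library 2 (0.0844), 3 (0.0562) or 4 (0.0869). For Auts2 this was so without young library 1 (0.0661), 2 (0.0758) or 4 (0.0964) and without old library 1 (0.0788), 2 (0.0890) or 4 (0.0784). For Ogt it was so without young library 1 (0.113) or 4 (0.107) and without old library 1 (0.0927), 2 (0.0772), 3 (0.0735) or 4 (0.0921). The direction was the same in each of these fits. With the marker covariate none of them passed: Max was at -0.77 ± 0.30 (adjusted p = 0.424), Auts2 at -0.37 ± 0.15 (adjusted p = 0.463) and Ogt at -0.32 ± 0.14 (adjusted p = 0.479). Without the variance trend none passed either (adjusted p = 0.0775, 0.0874 and 0.0950). Without both libraries 3, Auts2 passed (adjusted p = 0.0315) while Max (-0.65, adjusted p = 0.0802) and Ogt (-0.38, adjusted p = 0.0751) did not.

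All 7 tested PR-DUB partners had a log2 fold change below 0, as did all 3 PR-DUB members. Of the whole partner list 63.4% did, and of all tested genes 43.5%. The lists were chosen with earlier results of these data known, so the shared sign is a description and not a test. Foxk2 (-0.071 ± 0.11), Mbd5 (-0.056 ± 0.12), Mbd6 (-0.15 ± 0.22) and Asxl2 (-0.057 ± 0.13) lay within their SE of 0. The median of the 7 partners was -0.29, and 4 of them had an unadjusted p under 0.05 with a lower level, where 8.06% of all tested genes did. Besides Ogt these were the H3K4 demethylase Kdm1b (-0.37 ± 0.13, adjusted p = 0.148), the host cell factor Hcfc1 (-0.29 ± 0.12, adjusted p = 0.193) and the forkhead gene Foxk1 (-0.49 ± 0.20, adjusted p = 0.201). Hcfc1 and Foxk1 were named after their values were seen. Each of these 3 overlapped between the ages: Hcfc1 had 1916, 1986, 1685 and 1941 in young and 1395, 1788, 1716 and 1284 in old.

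**Figure D5:**
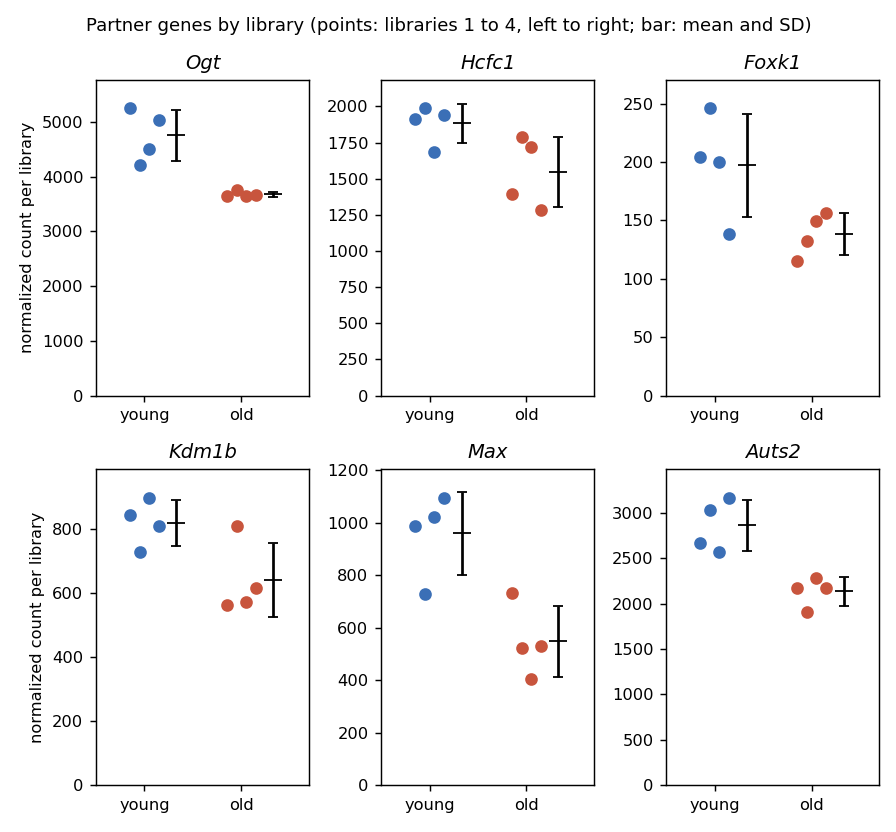
Normalized counts (y axis, from 0) of 6 partner genes in young and old libraries 1 to 4, with mean and SD beside them. Ogt and Auts2 do not overlap between the ages, Max meets at 729 in young and 732 in old, and Hcfc1, Foxk1 and Kdm1b overlap.

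The opposing enzymes and the other partner groups showed no called gene. Of 5 other H2A deubiquitinases none passed, with Usp22 at -0.10 ± 0.11 and Usp16 at -0.069 ± 0.096. The H3K27 demethylases Kdm6b (0.078 ± 0.11, 5036 ± 581 in young) and Kdm6a (0.096 ± 0.14) did not pass. Among PRC2 modulators, Epop, an elongin-binding PRC2 subunit, had 416, 385, 336 and 309.9 in young and 459.9, 787, 389.6 and 483 in old (0.51 ± 0.21, adjusted p = 0.192). With the marker covariate Epop was at 0.0060 ± 0.25 (adjusted p = 0.994). Lcor was at 0.21 ± 0.18. Among genes with MBT domains, Mbtd1 was at -0.33 ± 0.12 (adjusted p = 0.144) and L3mbtl3 at -0.25 ± 0.12 (adjusted p = 0.289). The ages did not overlap for L3mbtl3.

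Of 34 regulators that Polycomb complexes repress in many tissues, 18 did not reach a mean of 10 normalized counts, and of the 16 tested none passed (2 were higher and 0 lower at an unadjusted p under 0.05, where 12.7% and 8.06% of all tested genes were). Of the 16, 13 had a log2 fold change above 0 and 3 below, where 43.5% of all tested genes lay below 0. Their median was 0.32, against 0.045 over all tested genes, and the cause was not tested. The cell cycle inhibitor Cdkn2a, a classical Polycomb target named for that role, had 3.60, 1.90, 4.23 and 4.13 in young and 9.38, 1.63, 1.07 and 0 in old, and was not tested. Tbx15 (0.55 ± 0.20, adjusted p = 0.146) and Foxf1 (0.68 ± 0.23, adjusted p = 0.128) had the smallest p. Tbx15 rose without old library 3 (0.75 ± 0.15, adjusted p = 0.0235) and without both libraries 3 (0.75 ± 0.17, adjusted p = 0.0319). With the fibroblast and tendon marker covariate it was at 0.011 ± 0.22 (adjusted p = 0.989), and Foxf1 at 0.51 ± 0.37 (adjusted p = 0.668). Gata2 and Sox17, named after their values were seen, were highest in the libraries with the highest endothelial marker sums. Gata2 had 1367 in young library 3 and 1125 in old library 3, against 274 to 614 elsewhere, and Sox17 had 4799.9 and 3848 there, against 1097 to 2496.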

How the data were processed

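RNA from 4 young and 4 old preparations of muscle stem cells was sequenced. The deposited table gives, per gene symbol, a signal in the form of normalized counts, which the authors made by dividing reads per gene by a size factor for each library. Trim Galore 0.4.2, STAR, Subread 1.5.1, featureCounts and DESeq2, and the builds GRCm39 and mm10, are named without role in the submitters' processing notes, and whether counting used strand is not given in the sources used here. At least 99.97% of values were whole multiples (within 0.01) of the value of 1 read, so whole reads were recovered, 27.8 ± 5.69 M per young and 23.5 ± 3.51 M per old library (SD).

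The 14822 genes whose mean reached 10 normalized counts were compared with limma 3.58.1 (R 4.3.3) on log2(value + 1), with age as the only term, an intensity trend, two-sided tests and Benjamini-Hochberg adjustment. This understates changes of low genes. On the recovered reads edgeR 4.0.16 called 707 genes (4.77%) and DESeq2 1.42.0 called 1369 of 14814 (9.24%), and both called the same 3 members. The scripts were tested on simulated data. Exon lengths and overlaps came from GENCODE on GRCm38, and promoters from RefSeq on GRCm38.p6. Each exon length is the union of the exons of all annotated transcripts of a gene, and ranks per kb between genes depend on it. Members and lists were chosen with earlier results of these data known. Named were all members, each called partner or target, and the 2 of each partner group and of the targets with the smallest p. No 2 libraries of the same age agreed within sampling noise.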

Additional observations from a re-analysis of the deposited data

Results flagged for a closer look

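In 96 groups of 4 libraries (one gene at one age), 1 library stood far from the other 3 in 2 cases, where chance flags about 1 in 20, or 4.8 of 96. For Scmh1, young library 4 was the lowest with 1017 normalized counts, and the other young libraries lay between 1191 and 1207. For Scml2, young library 2 was the highest with 54.1 normalized counts, and the others lay between 17.6 and 22.3. Neither gene passed the test between the ages.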

How the results depend on the processing

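There were 21 alternatives, of which Phf19, Cbx2, Cbx8 and Scml2 were tested in 20. Of the 34 members, 20 kept their sign in every alternative that tested them, and none of the 31 uncalled members was called in any. Over all genes (all genes higher in old, all genes lower in old) 495 and 278 were called. Without the variance trend these were 268 and 134, with the fibroblast marker covariate 9 and 5, by DESeq2 768 and 601, and without 1 library 213 to 523 and 117 to 316 (533 higher without both libraries 3). Members higher (1) and lower (2) numbered 0 and 1 without the trend, 0 and 0 with the covariate, and 0 to 1 and 1 to 2 without 1 library. Partners lower (3) numbered 1 with quantile normalization, 0 without the trend, 1 with the replicate block, 1 without both libraries 3, 0 with the covariate and 0 to 2 without 1 library. Targets higher (0) numbered 1 without both libraries 3 and 0 to 1 without 1 library. The cause was not tested.

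The labels do not say whether replicate numbers pair the libraries. Deviations from the age means correlated at 0.19, 0.072, 0.30 and -0.042 in same-numbered pairs, and between -0.16 and 0.14 in the others. The highest values, 0.30 and 0.19, were those of libraries 3 and of libraries 1, so the correlations do not settle the pairing. With the replicate block 559 genes were higher and 252 lower, and Scml4, Cbx7 and Asxl1 kept their calls (limma adjusted p = 0.00460, 0.0343 and 0.0359). Max kept its call (0.0267), while Auts2 (0.0573) and Ogt (0.0612) lost theirs.

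Signs reversed with the covariate for Suz12 (0.064), Phf19 (0.065), Cbx2 (-0.12), Pcgf1 (-0.16), Pcgf6 (0.13) and Yaf2 (0.0998), with quantile normalization for Pcgf2 (-0.041), Cbx2 (-0.19) and Pcgf1 (-0.052), and with sample weights for Pcgf5 (-0.0033) and Pcgf6 (0.00071). By edgeR and DESeq2 they reversed for Phf19 (0.011 and 0.0026), Rnf2 (-0.018 and -0.026), Cbx2 (-0.13 and -0.14) and Pcgf5 (-0.014 and -0.022). Without both libraries 3 the sign reversed for Pcgf5 (-0.092), while Scml2 kept its sign at -0.35. Without 1 library, Rbbp7 ran from -0.020 to 0.10, Phf19 from -0.60 to 0.27, Rnf2 from -0.031 to 0.067, Cbx2 from -0.38 to 0.43, Phc1 from -0.18 to 0.021, Scmh1 from -0.067 to 0.046, Scml2 from -0.32 to 0.21, Pcgf5 from -0.042 to 0.072, Pcgf6 from -0.13 to 0.054, Asxl2 from -0.14 to 0.0094, Usp16 from -0.12 to 0.0035 and Kdm6b from -0.0079 to 0.15. Phf19, Cbx2, Cbx8 and Scml2 had a mean under 50 normalized counts, and the part of depth was not tested.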

Other observations

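Among the targets too low to be tested, 2 were named after their values were seen. Lhx2, a homeobox gene, had between 0.950 and 7.05 normalized counts in young and 13.1, 24.5, 9.66 and 9.38 in old, without overlap. Tbx5, a regulator of forelimb and heart development, had 0, 2.85, 0 and 0 in young and 11.3, 11.4, 0 and 12.5 in old, with old library 3 at 0.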
